A study of Mus musculus with 18 samples.

Results

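The genes described here encode the proteins of the cytosolic ribosome. They were chosen by name, as the rows of a table of 54532 mouse genes whose symbol is Rpl or Rps with a number (and, where present, an ending such as a, l, l1 or x), Rplp0, Rplp1, Rplp2 or Rpsa, with pseudogene names left out. The rule found 86 genes. Levels are in FPKM, fragments scaled to gene length in kilobases and to a library size that the sources used here do not define. A mean of at least 1 FPKM over 18 libraries was reached by 79 members, which entered the tests among 11084 genes. The other 7 were Rpl24, Rpl32l, Rps4l, Rpl39l, Rpl3l, Rpl10l and Rps12l1. Their means ran from 0 to 0.705 FPKM. The symbols Rpl6l, Rpl32l and Rps12l1 are annotated as processed pseudogenes and Rps4l as a transcribed one. Genes for ribosomal proteins with other symbols (Rps3a1, Fau and Rack1 among them) are outside the rule and are described as a list of their own.

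Polyadenylated RNA was sequenced from KPCA.B cells, a mouse line labelled as high-grade serous ovarian cancer. Cells carried a hairpin labelled as an Ndufa5 knockdown (shNdufa5_1 or shNdufa5_2) or a control hairpin (shControl, labelled as Ndufa5 wild type). Ndufa5 encodes an accessory subunit of mitochondrial complex I. Each genotype was cultured in medium conditioned by cells made senescent with cisplatin (SCM) or by proliferating cells treated with the vehicle DMF (PCM). All groups shared the base medium: conditioned medium and fresh high-glucose DMEM in a ratio of 1:1, the fresh part with 4% heat-inactivated serum, 2 ng/mL EGF and ITS-G, a supplement of insulin, transferrin and selenium. The 6 groups were shNdufa5_1 in SCM, shNdufa5_1 in PCM, shNdufa5_2 in SCM, shNdufa5_2 in PCM, shControl in SCM and shControl in PCM, with 3 libraries each. The study asked how factors secreted by senescent cells act on transcription in neighbouring cells, and what Ndufa5 has to do with it. The labels do not say whether replicate libraries were separate cultures. The p-values therefore measure the spread between these samples, and that spread may be technical.

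Ribosomal proteins assemble with ribosomal RNA in the nucleolus into a small subunit, which decodes mRNA, and a large subunit, which joins amino acids. Cells make them in near equal numbers, and growth signals acting through mTOR control the translation of their mRNAs as a group. These mRNAs begin with a run of pyrimidines, the 5-prime terminal oligopyrimidine (TOP) motif, which the protein LARP1 recognises when mTOR is inactive. Some members have further roles: free RPL5, RPL11 and RPL23 bind MDM2, the ubiquitin ligase of p53.

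Most of these genes with a listed start site held a run of pyrimidines near a start, before it or after it. A run before the start is outside the mRNA, so such a run is not by itself a TOP motif. The following sequences, from RefSeq on GRCm38.p6, run from 50 bases before to 30 bases after an annotated start, and capitals mark runs of at least 8 pyrimidines. Rplp2, Rpl7a and Rps27 are shown because they hold such a run at or beside the start, Rpl22l1 as a paralog with a run, and Rpl7l1 because it is without one here and fell in SCM while nearly all other members rose.
Rplp2, chr7:141447601-141447680 (plus strand): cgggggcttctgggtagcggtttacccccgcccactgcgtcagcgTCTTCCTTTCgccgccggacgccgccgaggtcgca
Rpl7a, chr2:26910757-26910836 (plus strand): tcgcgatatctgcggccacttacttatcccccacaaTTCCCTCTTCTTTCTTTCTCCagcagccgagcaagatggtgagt
Rps27, chr3:90213619-90213698 (minus strand): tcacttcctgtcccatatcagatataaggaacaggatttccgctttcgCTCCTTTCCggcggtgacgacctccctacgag
Rpl22l1, chr3:28805458-28805537 (plus strand): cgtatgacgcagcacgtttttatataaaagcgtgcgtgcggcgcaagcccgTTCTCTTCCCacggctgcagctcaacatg
Rpl7l1, chr17:46782627-46782706 (minus strand): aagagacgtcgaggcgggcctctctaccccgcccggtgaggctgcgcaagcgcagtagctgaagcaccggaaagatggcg

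RefSeq windows were found for 63 of the 86 genes by symbol, in a table of 27025 genes. On the transcribed strand, 53 of the 63 (84.1%) held a run of at least 8 bases that were all C or T within 50 bases of a start, against 39.3% of all genes in the table. The letters CCGGAAG, the core of ETS factor sites, were in the 300 bases around the start (both strands) of 25 members, or 39.7%, against 9.93% of all genes. AAGATGGC, a core of YY1 sites, was in 9.52% of members against 3.19% of all genes, and TATAAA was in 12.7% against 15.7%. A match of letters is a description of the window and does not show binding.

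The libraries held 13.8 to 38.9 M (mega) fragments assigned to genes, recovered from the steps of the FPKM values. Ndufa5 fell with shNdufa5_1 in SCM (6.49 ± 0.275 FPKM, against 23.1 ± 2.77 FPKM in shControl, SD, n = 3) and in PCM, with limma log2 differences of -1.68 and -1.39. In the libraries labelled shNdufa5_2 it averaged 17 ± 2.91 FPKM in SCM and 17.5 ± 1 FPKM in PCM, where shControl had 18.8 ± 3.45 FPKM (SD, n = 3 each). Those libraries thus kept most of the Ndufa5 mRNA, with a limma log2 difference of -0.43 in SCM (adjusted p = 0.0125) and -0.08 in PCM (adjusted p = 0.647). Of 11 ovarian cancer markers 6 had a mean of at least 1 FPKM, keratins and Pax8 among them, while Wt1 and Muc16 were below 0.1 FPKM in every library. The epithelial markers Epcam and Cdh1 were low, with group means of 0.044 to 0.344 FPKM and 0.304 to 1.31 FPKM. Ptprc, Cd3e, Csf1r, Adgre1 and Itgam of immune cells, Pecam1, Kdr, Tek and Vwf of endothelium, and Col1a2, Fap and Thy1 of fibroblasts were also below 0.1 FPKM in every library. Yet 4 of 9 fibroblast markers had a mean of at least 1 FPKM. Group means were 4.27 to 11.7 FPKM for Col3a1, 1.25 to 2.65 FPKM for Col1a1 and 0.838 to 2.62 FPKM for Dcn. Other markers moved with SCM in shControl cells: the summed ovarian cancer markers were 1555 to 1669 FPKM in SCM against 1011 to 1076 FPKM in PCM, and the 9 fibroblast markers summed to 11.6 to 13.9 FPKM against 7.21 to 8.59 FPKM. The 9 immune markers summed to 5.92 to 7.07 FPKM in SCM against 2.01 to 2.31 FPKM in PCM, almost all of it Cd68. The 6 endothelial markers, almost all Plvap, summed to 5.67 to 8.48 FPKM in SCM against 3.56 to 4.49 FPKM in PCM, and the 4 mesothelial markers, almost all Msln, to 59.6 to 63.9 FPKM against 40.7 to 43.9 FPKM. Between genotypes, the ovarian cancer markers averaged 1972 FPKM in SCM and 1642 FPKM in PCM with shNdufa5_1, 1179 FPKM and 1156 FPKM with shNdufa5_2, and 1602 FPKM and 1048 FPKM in shControl. The mesothelial markers averaged 68.4 FPKM with shNdufa5_1 and 51.5 FPKM with shNdufa5_2 in PCM, against 42.1 FPKM in shControl. Their part in the results below was not tested.

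Ribosomal protein mRNAs were among the most abundant in these cells, and on the deposited scale they were most abundant in shControl cells in SCM. Over all libraries Rplp1 and Rplp0, of the stalk that recruits elongation factors to the large subunit, led with means of 2820.5 and 2287 FPKM, followed by Rps2, a protein of the mRNA entry channel, with 2051 FPKM. The lowest listed values of the 79 were those of Rps10 with 5.83 FPKM and Rpl21 with 18.9 FPKM. Pseudogene copies took 95.6% and 67.2% of the fragments of these genes and their copies, so both levels are uncertain. Of the 79 members 75 had their highest group mean in shControl cells in SCM. The exceptions were Rpl36a, Rpl6l and Rps27a, which were highest in the libraries labelled shNdufa5_2 in SCM, and Rpl7l1, which was highest in shNdufa5_1 in PCM. Rpl36a was nearly level, with 104.17 FPKM in the libraries labelled shNdufa5_2 in SCM against 103.15 FPKM in shControl in SCM. The lowest group mean was in shNdufa5_1 in PCM for 64 members and in shControl in PCM for 13. The shares of all genes with their highest or lowest mean in these groups were not taken.

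On the deposited scale the median member level put the 6 groups in one order, which the shares of the FPKM sum given below do not keep. It was 444 ± 10.9 FPKM in shControl in SCM, 390.3 ± 4.23 FPKM in the libraries labelled shNdufa5_2 in SCM and 312 ± 6.7 FPKM in those in PCM. It was 278 ± 7.56 FPKM in shNdufa5_1 in SCM, 236 ± 11.5 FPKM in shControl in PCM and 210.1 ± 5.8 FPKM in shNdufa5_1 in PCM (SD, n = 3 each). Neighbours in this order were apart by more than their SDs. As a share of all fragments assigned to genes, the 86 members took 5.74 ± 0.079% in shNdufa5_1 in SCM, against 4.51 ± 0.162% in PCM. They took 7.99 ± 0.0404% in the libraries labelled shNdufa5_2 in SCM, against 6.91 ± 0.0914% in PCM, and 8.96 ± 0.254% in shControl in SCM, against 5.32 ± 0.134% in PCM. These were bulk samples, in which fewer cells of a kind and less RNA per cell cannot be told apart.

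**Figure D1:**
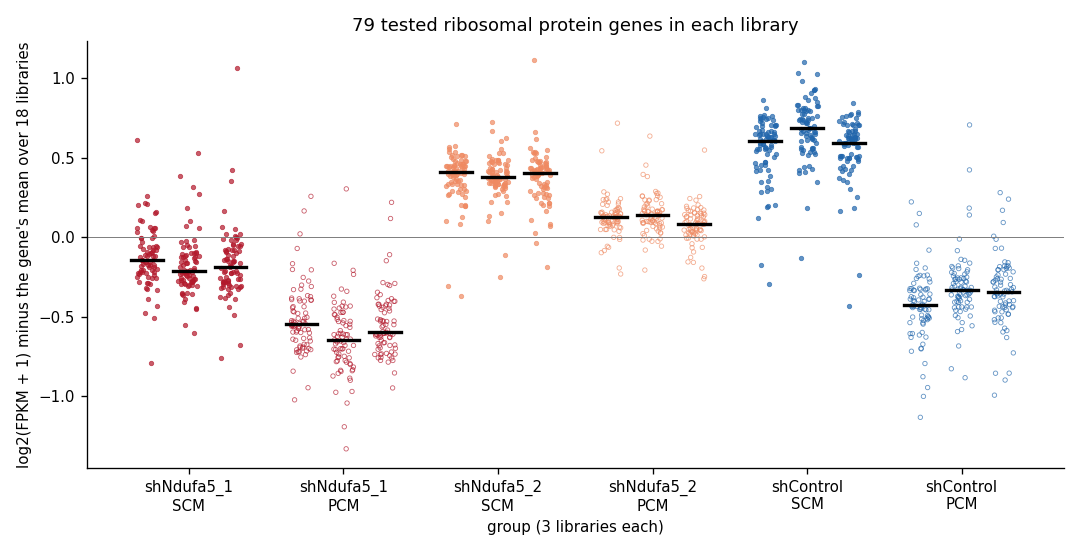
Level of the 79 tested ribosomal protein genes in each of 18 libraries, as log2(FPKM + 1) minus the gene's own mean over all libraries (y axis), grouped by hairpin and medium (x axis). Each point is a gene, black bars are medians, filled points are SCM and open points PCM, with shNdufa5_1 in red, shNdufa5_2 in orange and shControl in blue. Within each genotype the medians of the 3 SCM libraries lie above those of the 3 PCM libraries, and on this scale the gap is widest in shControl.

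As a share of the FPKM sum, which weights genes by level per length, the members made up 9.5 ± 0.415% in shNdufa5_1 in SCM against 7.45 ± 0.988% in PCM. In the libraries labelled shNdufa5_2 the share was 13 ± 0.431% in SCM against 10.4 ± 0.119% in PCM, and in shControl it was 12.8 ± 0.217% in SCM against 9.53 ± 0.302% in PCM (SD, n = 3 each). A single short feature, Gm23935, weighed on these sums: it averaged 82770.0 FPKM in shControl in SCM and 21478 FPKM in shControl in PCM. With shNdufa5_1 it averaged 48214 FPKM in SCM and 57863 FPKM in PCM. In the libraries labelled shNdufa5_2 it averaged 39248 FPKM in SCM and 67765 FPKM in PCM. In shNdufa5_1 in PCM replicate 2 stood apart, with 99866 FPKM of Gm23935 and a member share of 6.31%, where the others had 42110.0 and 31614 FPKM and shares of 7.97% and 8.07%; without it the share averaged 8.02%. Without features under 300 bp the shares were 11.2 ± 0.145% against 9.12 ± 0.256% in shNdufa5_1, 14.8 ± 0.0465% against 12.9 ± 0.116% in the libraries labelled shNdufa5_2 and 15.9 ± 0.381% against 10.4 ± 0.241% in shControl, SCM before PCM in each.

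In shControl cells nearly every ribosomal protein gene was higher in SCM than in PCM. Of the 79 members 76 rose and 1 fell, while 31.7% of all 11084 genes rose and 30.2% fell (limma on log2(FPKM + 1), adjusted p by Benjamini-Hochberg under 0.05). The median log2 difference of the members was 1.00, a fold of 2.00, against a median of 0.00 over all genes tested. Members were split into subunits by symbol alone, so that the large-subunit class also held Rpl6l and Rpl7l1. Large-subunit genes (46 of 48 rose, median 1.00) and small-subunit genes (30 of 31 rose, median 0.99) had nearly the same median, and the quartiles of the members were 0.86 and 1.13. Scaled to FPKM sums, where the median of all genes was -0.50, the member median was 0.39 and 60 members rose. Relative to all genes that median was 0.89. Shares of all genes called were taken on the deposited scale only, here and below.

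The 3 stalk genes rose together. Rplp1 had 4758, 4974 and 4712 FPKM in shControl cells in SCM, against 1957, 2046 and 1987 FPKM in PCM, and Rplp0 had 3584, 3737 and 3610.1 FPKM in SCM against 1647, 1762 and 1696 FPKM in PCM. For both genes every SCM library was above every PCM library. The log2 differences by limma were 1.27 ± 0.03 (SE), adjusted p = 2.08e-13, for Rplp1, 1.10 ± 0.03 (SE), adjusted p = 8.16e-13, for Rplp0, and 1.29 ± 0.04 (SE), adjusted p = 2.46e-12, for Rplp2.

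The largest rises were those of Rpl41, Rpl37a, Rpl6l, Rps28 and Rps4x. Rpl41, which encodes the smallest protein of the ribosome, had 903, 1186 and 934 FPKM in SCM against 318, 344 and 305 FPKM in PCM, and its log2 difference was 1.63 ± 0.10 (SE), adjusted p = 1.07e-09. Rpl37a, a zinc-binding protein of the large subunit, had 221, 249 and 218 FPKM in SCM against 72.9, 86.9 and 88.6 FPKM in PCM, a log2 difference of 1.46. The groups did not overlap for either gene. Rpl6l followed with 1.44, close to Rpl6 with 1.27, whose sequence it resembles, so that fragments of the pair may be shared. Rps28, of the mRNA exit side of the small subunit, rose by 1.40, and Rps4x, a small-subunit gene of the X chromosome, by 1.32.

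**Figure D2:**
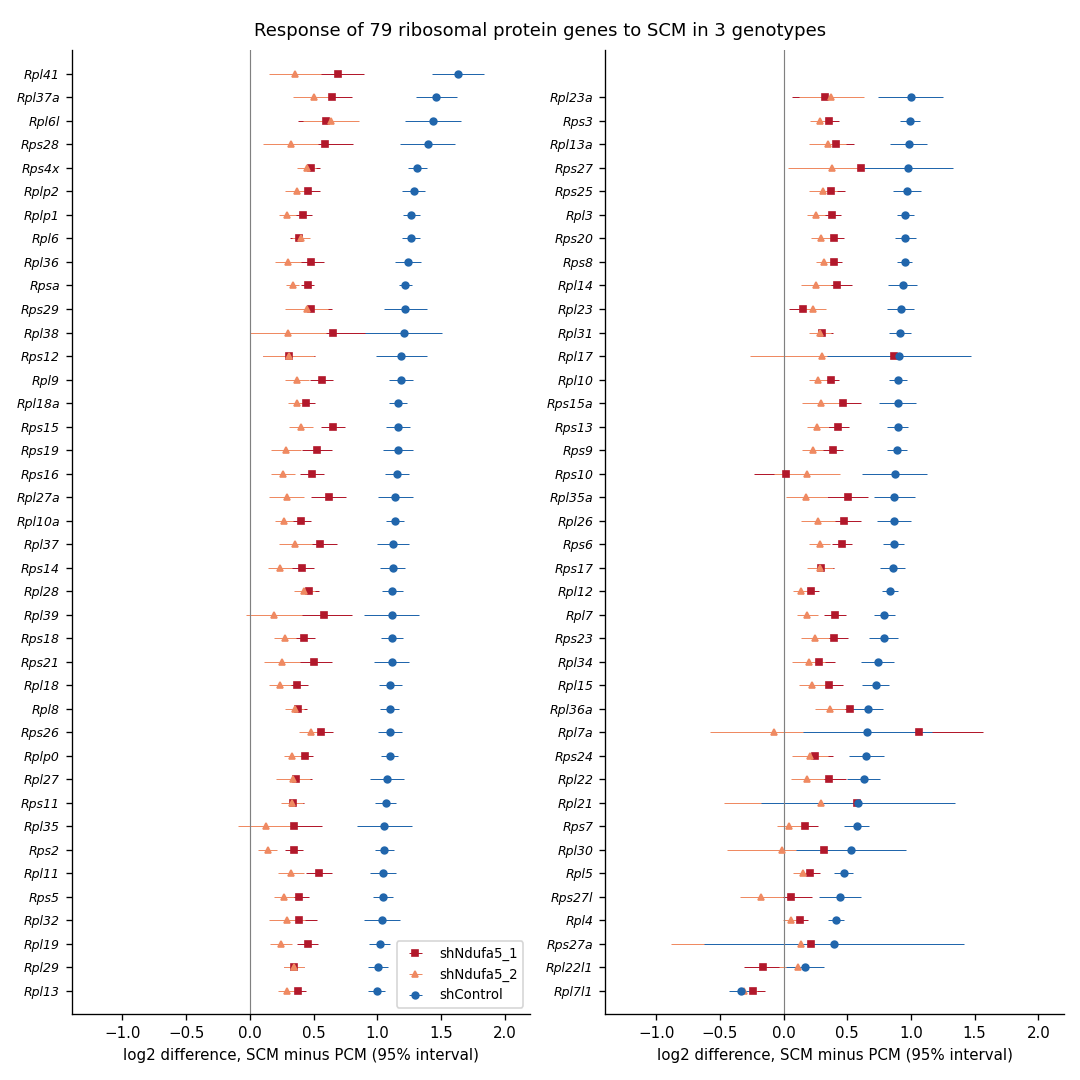
Log2 difference between SCM and PCM for each of the 79 tested genes (x axis, with 95% intervals from limma), ranked by the response of shControl cells, in shNdufa5_1 (red squares), shNdufa5_2 (orange triangles) and shControl (blue circles). On the deposited scale blue points lie right of the others for most genes. Rpl7l1 is left of 0 in all 3 genotypes, and Rps27a, Rpl21, Rpl7a and Rpl17 have the widest intervals.

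Genes with further roles rose as well, to different degrees. Rps6, whose protein is the classic substrate of S6 kinase, had 1490.2, 1600.0 and 1471 FPKM in SCM against 798, 854 and 853 FPKM in PCM, without overlap, and a log2 difference of 0.86 ± 0.04 (SE), adjusted p = 4.13e-11. Rpsa, the laminin receptor precursor, rose by 1.22, and Rpl13a, which in human monocytes leaves the ribosome to silence translation after interferon-gamma, by 0.98. Among the genes whose proteins bind MDM2, Rpl11 (1.04) and Rpl23 (0.92) rose near the median, while Rpl5, the partner of RPL11 in the 5S particle, rose by 0.47, with 445, 479.9 and 462 FPKM in SCM against 324, 329.6 and 346 FPKM in PCM. The 4 genes of the decoding centre and mRNA channel (Rps2, Rps3, Rps15 and Rps23) rose by 0.79 to 1.17. The 6 genes of the peptide exit tunnel and its rim rose by 0.41 to 1.11, with Rpl4 lowest (1128, 1122 and 1124 FPKM in SCM against 839, 845 and 859 FPKM in PCM) and Rpl39 highest. Scaled to FPKM sums, Rpl4 turned to -0.20 and Rpl5 to -0.14. All 17 genes on a list linked to Diamond-Blackfan anaemia in humans rose, with a median of 0.91, beside 76 of all 79 members and 31.7% of all genes, so the count is not particular to them.

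Rpl7l1, Rpl22l1 and Rps27l, paralogs of better-known members, were among the genes that rose least or fell. Rpl7l1, which encodes a nucleolar relative of RPL7 that acts in ribosome assembly, fell in shControl cells in SCM (41.6, 42.9 and 39.7 FPKM, against 52.3, 51.9 and 53 FPKM in PCM). All 3 SCM libraries were below all 3 PCM libraries, and the log2 difference was -0.33 ± 0.04 (SE), adjusted p = 9.78e-06. Its parent Rpl7 had 663, 721 and 705 FPKM in SCM against 398, 409 and 399 FPKM in PCM and rose by 0.79. With SCM in shNdufa5_1 the log2 difference of Rpl7l1 was -0.24 ± 0.04 (SE), adjusted p = 5.40e-04. In those labelled shNdufa5_2 the value was -0.31 ± 0.04 (SE), adjusted p = 1.87e-04, so that the gene fell in each genotype.

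Rpl22l1, which can take the place of RPL22 in the ribosome, changed little with SCM in shControl (35.6, 39.4 and 39.5 FPKM in SCM, against 33.6, 32.7 and 35 FPKM in PCM). The difference of 0.17 ± 0.07 (SE), adjusted p = 0.0453, passed the threshold narrowly and turned to -0.072 scaled to fragment totals and to -0.42 scaled to FPKM sums. All 3 SCM libraries were above all 3 PCM libraries, yet without SCM replicate 3 the call was lost (0.15, limma adjusted p = 0.130). Rpl22 rose by 0.63. Rps27l, known in human cells as a p53 target, rose by 0.44 (112, 133 and 131 FPKM in SCM against 82.1, 96.6 and 96.5 FPKM in PCM), and turned to -0.16 scaled to FPKM sums, while Rps27 rose by 0.98. Scaled to FPKM sums Rpl22 (0.022), Rpl7 (0.18), Rps23 (0.18) and Rps27 (0.37) were no longer called. Rpl3l, Rpl10l, Rpl39l and Rps4l, of which the first 3 are known from muscle or testis, had means under 0.02 FPKM, while Rpl3, Rpl10, Rpl39 and Rps4x rose by 0.96, 0.90, 1.11 and 1.32. Rps27a, a fusion of ubiquitin with a small-subunit protein, and Rpl21 were not called: Rps27a had 135, 263 and 123 FPKM in SCM and 82.5, 117 and 196 FPKM in PCM, and these ranges overlapped.

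**Figure D3:**
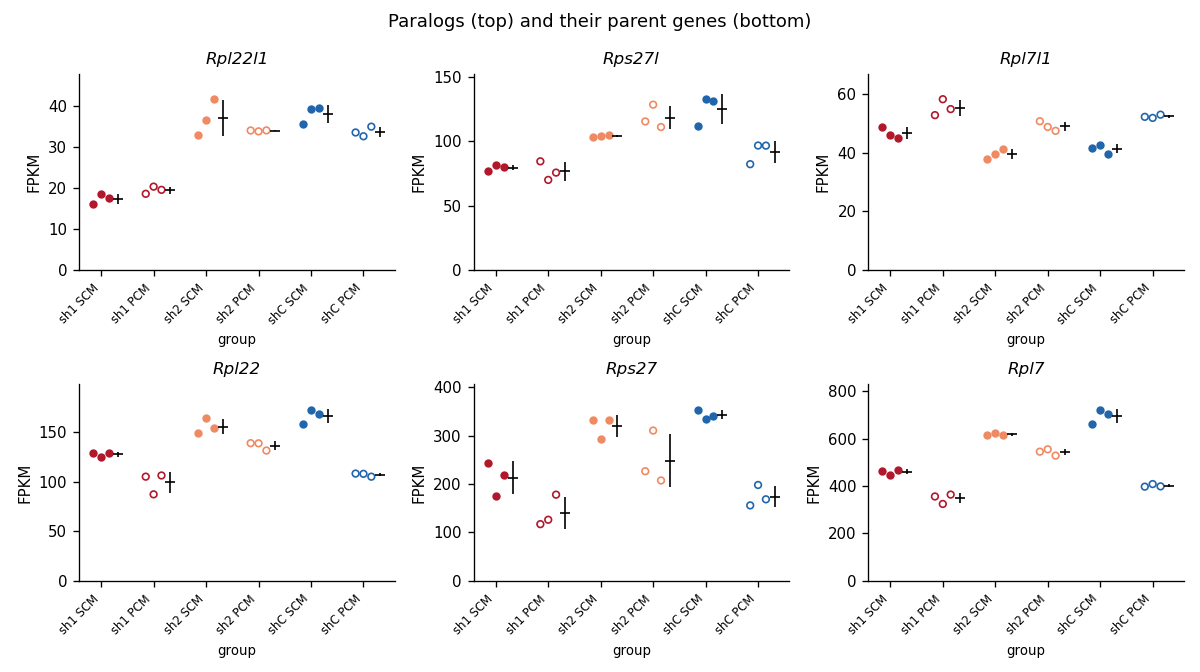
FPKM (y axes, from 0) of 3 paralogs (top row) and their parent genes (bottom row) in the 6 groups (x axes; sh1 and sh2 stand for shNdufa5_1 and shNdufa5_2, shC for shControl), with filled points for SCM and open points for PCM. Points are libraries and black marks are means ± SD of 3 libraries. Rpl22l1 is lowest in both shNdufa5_1 groups, and Rpl7l1 is lower in SCM than in PCM in each genotype.

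Both hairpin genotypes answered SCM in the same direction as shControl, and by less on the deposited scale; scaled to FPKM sums the member medians were close, 0.35 in shNdufa5_1 and 0.33 with shNdufa5_2, against 0.39 in shControl. In shNdufa5_1 72 members rose and 1 fell, where 22.5% of all genes rose and 19.8% fell, with a member median of 0.41. Libraries labelled shNdufa5_2 had 63 members that rose and 1 that fell, where 11.7% of all genes rose and 11.1% fell, with a median of 0.29. The 63 members that rose in those libraries also rose in the other genotypes. As 76 and 72 of the 79 rose in shControl and shNdufa5_1, most of that overlap was given in advance. The share of all genes that rose in all 3 genotypes was not taken. The 3 comparisons share no library, and across the 79 members the responses of shNdufa5_1 and shControl had a Spearman correlation of 0.55, those of shNdufa5_2 and shControl 0.69, and those of shNdufa5_1 and shNdufa5_2 0.54. The genes share each library's depth and base composition, so these values describe the order of genes and carry no p.

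The stalk again shows the scale. Rplp1 had 2145, 2119 and 2008 FPKM in shNdufa5_1 in SCM against 1614, 1520.0 and 1552 FPKM in PCM, and 3525, 3608 and 3536 FPKM in the libraries labelled shNdufa5_2 in SCM against 2869.9, 2899 and 2936 FPKM in PCM. Neither pair of groups overlapped, and the log2 differences were 0.42 ± 0.03 (SE), adjusted p = 1.46e-07, with shNdufa5_1 and 0.29 ± 0.03 (SE), adjusted p = 1.28e-05, with the other hairpin. With shNdufa5_1 the largest called values were those of Rpl7a (1.06) and Rpl17 (0.87), whose libraries scatter widely (without SCM replicate 2 Rpl17 was at 0.73, limma adjusted p = 0.0664), then Rpl41 (0.69), Rpl38 (0.66) and Rps15 (0.65), which lies near the decoding centre. The smallest rises called were Rpl4 (0.13), Rpl23 (0.15) and Rps7 (0.17). None of the 3 was called scaled to FPKM sums (Rpl4 0.069, Rpl23 0.094 and Rps7 0.11). Rpl4 and Rpl23 also lost their calls scaled to fragment totals, Rpl23 and Rps7 with the GC and length trend removed, and Rpl23 (0.13) without SCM replicate 3 or PCM replicate 1. In the libraries labelled shNdufa5_2 Rpl6l (0.64), Rpl37a (0.50) and Rps26 (0.48), whose protein contacts mRNA at the exit channel, led.

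On the deposited scale the response to SCM was smaller in both hairpin genotypes than in shControl, tested as an interaction in limma; scaled to FPKM sums the member medians were near 0. With shNdufa5_1 it was lower for 70 of 79 members and higher for 0, against 15.5% and 10.7% of all genes, with a median difference of -0.58. For the libraries labelled shNdufa5_2 it was lower for 72 and higher for 0, against 24.1% and 18.9% of all genes, with a median of -0.70. Both interactions use the same shControl libraries, so they are not independent of each other. Scaled to FPKM sums, the median of all genes moved to 0.46 for shNdufa5_1 and 0.52 for the libraries labelled shNdufa5_2. The member medians were then -0.03, with 6 members lower and 5 higher, and -0.06, with 8 lower and 5 higher. Relative to all genes those medians were -0.48 and -0.57. No shares of all genes called were taken at this scaling. Scaled to fragment totals, 58 members were lower and 1 higher with shNdufa5_1, with a median of -0.38. For the libraries labelled shNdufa5_2, 69 were then lower and 1 higher, with a median of -0.52. With the GC and length trend removed, 66 and 69 were lower.

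By gene, Rpl41 had the lowest interaction with either hairpin, -0.94 ± 0.14 (SE), adjusted p = 9.82e-05, for shNdufa5_1 and -1.27 ± 0.14 (SE), adjusted p = 3.17e-06, for the libraries labelled shNdufa5_2. Its levels were 663, 627 and 552 FPKM in shNdufa5_1 in SCM against 419, 378 and 345 FPKM in PCM, and 694, 734 and 670.4 FPKM in the libraries labelled shNdufa5_2 in SCM against 531, 578 and 528 FPKM in PCM. In each genotype all SCM libraries of Rpl41 stood above the PCM ones. Rplp1 followed the same course with interactions of -0.85 and -0.98, and Rplp2 with -0.83 and -0.92. Rpl6 (-0.88) and Rps12 (-0.88) were next for shNdufa5_1, and Rps28 (-1.08) and Rpl37a (-0.96) stood near the top for the other hairpin. Rpl7l1 was not called in either interaction (0.10 and 0.03).

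**Figure D4:**
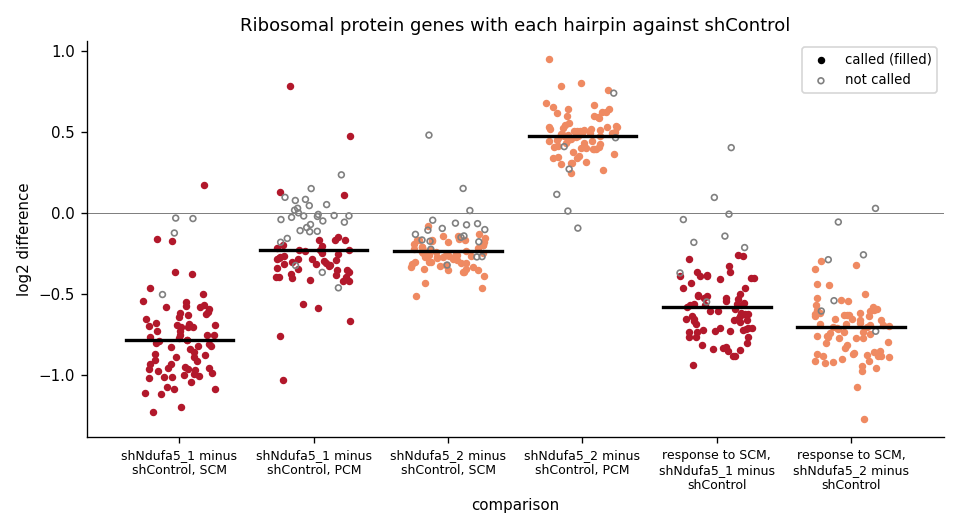
Log2 differences of the 79 tested genes (y axis) for each hairpin against shControl in SCM and in PCM, and for the difference of the response to SCM between each hairpin and shControl (x axis). Each point is a gene, filled where called by limma and open grey where not, with shNdufa5_1 in red and shNdufa5_2 in orange, and black bars are medians. In PCM the points of shNdufa5_1 lie mostly below 0 and those of shNdufa5_2 above 0.

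In PCM the hairpins stood on opposite sides of shControl. With shNdufa5_1, 46 members were lower and 4 higher, against 27.1% and 25.6% of all genes, and the median was -0.23. Libraries labelled shNdufa5_2 had 72 members that were higher and 0 that were lower, against 19.3% and 16.3% of all genes, and the median was 0.47, or 0.12 scaled to FPKM sums (0.41 relative to all genes). Rps6 had 587, 543 and 567 FPKM in shNdufa5_1 in PCM and 1132, 1094 and 1102 FPKM in the libraries labelled shNdufa5_2, against 798, 854 and 853 FPKM in shControl. The 3 sets did not overlap, and the log2 differences were -0.56 ± 0.04 (SE), adjusted p = 8.59e-09, and 0.41 ± 0.04 (SE), adjusted p = 1.26e-06, of which the second was 0.052 and not called scaled to FPKM sums. Both comparisons use the same shControl libraries.

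The largest falls with shNdufa5_1 in PCM were those of Rpl7a (-1.03), Rpl22l1 (-0.76), Rpl19 (-0.67) and Rpl10 (-0.59), a protein needed for subunit joining. The 4 that rose were Rpl37a, Rpl6l, Rpl6 and Rpl4. Rpl37a had 143, 139 and 145 FPKM in shNdufa5_1 and 141, 152 and 136 FPKM in the libraries labelled shNdufa5_2, against 72.9, 86.9 and 88.6 FPKM in shControl, a log2 difference of 0.78 ± 0.08 (SE), adjusted p = 4.73e-07, and 0.78 ± 0.08 (SE), adjusted p = 2.04e-06. Every hairpin library was above every shControl library for this gene. Rpl6l differed by 0.48 and 0.95. Rpl6 (0.13) and Rpl4 (0.11) rose slightly with shNdufa5_1 and turned to -0.0050 and -0.023 scaled to FPKM sums. With the GC content and length of genes taken into account, 14 members were higher and 37 lower with shNdufa5_1 in PCM.

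In SCM both hairpin genotypes had lower ribosomal protein mRNA than shControl on the deposited scale. With shNdufa5_1, 74 members were lower and 1 higher, against 31.1% and 28.7% of all genes, with a median of -0.78, a fold of 0.581; scaled to FPKM sums 55 were lower and 4 higher, with a median of -0.36 (-0.71 relative to all genes). Of the 74, 46 were lower with shNdufa5_1 in PCM too. The share of all genes lower in both media was not taken. Rpl19 had 732, 748 and 779 FPKM in shNdufa5_1 in SCM against 1704, 1866 and 1746 FPKM in shControl, without overlap, a log2 difference of -1.23 ± 0.04 (SE), adjusted p = 1.62e-12. Rplp1 (-1.20), Rpl10 (-1.12) and Rpl22l1 (-1.09) were next among the named genes, and Rpl7l1 was the gene that was higher (0.17, adjusted p = 0.00364).

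For the libraries labelled shNdufa5_2 in SCM, 59 members were lower and 0 higher than in shControl, against 20% and 13.9% of all genes, with a median of -0.23; scaled to FPKM sums the direction turned, with a median of 0.06, 2 members lower and 6 higher (-0.17 relative to all genes). Rpl41 had 694, 734 and 670.4 FPKM in these libraries against 903, 1186 and 934 FPKM in shControl (-0.52 ± 0.10 (SE), adjusted p = 7.74e-04), and Rps2 had 2282, 2203 and 2304 FPKM against 3069, 3276 and 3032 FPKM (-0.47 ± 0.03 (SE), adjusted p = 2.26e-07). For both genes the ranges stayed apart. With GC content and length taken into account 33 members were lower, and scaled to fragment totals 36 were.

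Rpl22l1 was lower with shNdufa5_1 in both media. It had 16.2, 18.6 and 17.5 FPKM in shNdufa5_1 in SCM and 18.6, 20.4 and 19.6 FPKM in PCM. The libraries labelled shNdufa5_2 had 32.9, 36.6 and 41.7 FPKM in SCM and 34.1, 33.9 and 34.1 FPKM in PCM, near the shControl values given above. The limma differences from shControl in PCM were -0.76 ± 0.07 (SE), adjusted p = 2.79e-07, with shNdufa5_1 and 0.01 ± 0.07 (SE), adjusted p = 0.919, with the other hairpin; in SCM they were -1.09 ± 0.07 (SE), adjusted p = 2.89e-09, and -0.05 ± 0.07 (SE), adjusted p = 0.654. Rps27l was lower with shNdufa5_1 in SCM (-0.65) and in PCM (-0.26), while in the libraries labelled shNdufa5_2 it was higher in PCM (0.36). In SCM it was called lower in those libraries too (104.3 ± 0.862 against 125.1 ± 11.4 FPKM in shControl, SD, n = 3). That call was lost under several alternatives, and the difference turned to 0.036 scaled to FPKM sums. The call in PCM with shNdufa5_1 was lost without shNdufa5_1 replicate 2 (-0.19, limma adjusted p = 0.0676), and without shControl replicate 2 or 3. Scaled to FPKM sums, the higher level in the libraries labelled shNdufa5_2 was 0.0087 and the lower one with shNdufa5_1 in SCM was -0.23, neither of them called.

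Reads of these genes can fall on processed copies, of which the mouse genome holds many. Of 13050 rows annotated as pseudogenes, 1513 matched a member over at least 60% of their length at 85% identity or more. They took 6.40% of the fragments of members and copies together. For 30 members the copies took under 1%, for 18 over 10% and for 4 over 50%. These 4 were Rps10 (95.6%), Rpl24 (90.1%), Rpl21 (67.2%) and Rpl17 (53.3%). Rpl24 and Rps10 also overlap other annotated genes on the same strand that are listed at 0, as do Rpl13 and Rpl13a. The counter used is not given in the sources used here, so the levels of these members are uncertain. Rps10-ps2, a processed pseudogene of chromosome 16, averaged 545.9 FPKM, and Rps10 5.83 FPKM. The pair is shown to make plain how little separates them. The stretches below are 60 bases of the coding sequence and of the copy, from the GENCODE transcripts of GRCm38. They were picked as the stretch with the most differences, 4 of the 5 over 496 aligned bases, and capitals mark the bases that differ.
Rps10: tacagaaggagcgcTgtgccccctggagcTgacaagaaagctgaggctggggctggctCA
Rps10-ps2: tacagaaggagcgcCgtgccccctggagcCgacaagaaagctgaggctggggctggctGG

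Over 496 aligned bases Rps10 and Rps10-ps2 differed at 5. In shControl cells Rps10-ps2 averaged 930.2 FPKM in SCM and 364 FPKM in PCM. With the copies' fragments added to their member, Rps10 rose by 1.31 in shControl in place of 0.87, and by 0.51 in shNdufa5_1 in place of 0.02, which had not been called. Rpl21 was then called in shControl as well, at 0.63 (limma, adjusted p = 4.18e-04). With all copies added, 77 members rose in shControl, 74 in shNdufa5_1 and 65 with shNdufa5_2. The interactions then had 71 members lower with shNdufa5_1 and 76 with shNdufa5_2. Of the 179 copies with a mean of at least 1 FPKM, 118 rose and 2 fell in shControl in SCM, with a median of 0.79. Among all genes 31.7% rose and 30.2% fell. In shNdufa5_1 54 copies rose and 0 fell (22.5% and 19.8% of all genes). With shNdufa5_2 18 rose and 1 fell (11.7% and 11.1% of all genes). Fragments listed under copies may come from the members' own mRNAs, so these counts are not separate evidence.

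Some members varied between libraries of one group far more than the rest. The median SD within groups was 0.06 on the log2 scale, and 6 members were over 0.2. They were Rps27a (0.66), Rpl21 (0.49), Rpl17 (0.36), Rpl7a (0.33), Rpl30 (0.28) and Rps27 (0.22). Rpl7a had 180.1, 229.8 and 153 FPKM in shNdufa5_1 in SCM against 93.1, 75 and 98.1 FPKM in PCM, and 219, 364 and 297 FPKM in shControl in SCM against 123, 255 and 191 FPKM in PCM. The shNdufa5_1 groups were apart and the shControl groups overlapped. Copies took 7.44% of the fragments of Rps27a, 19.9% of those of Rpl7a, 10.02% of those of Rpl30 and 0.058% of those of Rps27; their part in the spread was not tested.

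The order of the members by their rise in shControl followed base composition in part. Across the 79 members it had a Spearman correlation of 0.50 with the GC content of the exons and -0.32 with exon length; with shNdufa5_1 the values were 0.19 and -0.25, and with shNdufa5_2 0.22 and -0.32. The genes share the libraries, so these are descriptions. The members' median exon length was 1830 bp against 4187 bp over all tested genes, and their median GC content 51.9% against 50.2%. With a trend on GC content and length removed from each library, the member median was 0.72 in shControl in place of 1.00, and 75 members rose. Rplp1 was then at 0.72 in place of 1.27 and Rpl41 at 1.21 in place of 1.63. The 50 tested members with a pyrimidine run within 50 bases of a start had a median rise of 0.99 and the 8 without one 1.04. The 24 with CCGGAAG had 1.06 and the 34 without it 0.96.

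Related gene lists did not all move with the ribosomal proteins. The 6 tested genes listed as ribosomal proteins outside the name rule, Rpl9-ps6 among them, did. In shControl in SCM 5 rose and 0 fell, where 31.7% of all genes rose and 30.2% fell. Their median was 0.93, or 0.32 scaled to FPKM sums (0.82 relative to all genes). Rack1, a scaffold on the small subunit, had 779.6, 799 and 787 FPKM in SCM against 398, 411 and 393 FPKM in PCM, without overlap, and a log2 difference of 0.97 ± 0.03 (SE), adjusted p = 4.27e-12. Fau rose by 0.82 and Rps3a1 by 0.87. Rpl9-ps6, which is named as a copy of Rpl9, rose by 1.37. Of 22 other TOP mRNAs 18 rose and 1 fell (31.7% and 30.2% of all genes), with a median of 0.52, which turned to -0.08 scaled to FPKM sums (0.42 relative to all genes). They were led by Eif3f of initiation factor 3 (1.26), the elongation factors Eef2 (1.20) and Eef1a1 (1.14), and Eif3k (1.08), and Cct4, a chaperonin subunit, fell (-0.28). Their interactions had medians of -0.37 with each hairpin, which turned to 0.18 and 0.28 scaled to FPKM sums (-0.28 and -0.24 relative to all genes). Of the 22, 15 were lower and 2 higher with shNdufa5_1 (15.5% and 10.7% of all genes), and 16 were lower and 1 higher in the libraries labelled shNdufa5_2 (24.1% and 18.9%).

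Genes for making ribosomes fell more often than they rose. Of 89 genes for nucleolar processing and subunit assembly, 52 fell and 23 rose in shControl in SCM, where 30.2% of all genes fell and 31.7% rose. Their median was -0.24, or -0.79 scaled to FPKM sums (-0.29 relative to all genes). Heatr3, which brings RPL5 to the nucleus, fell (-1.03), as did the small-subunit export factor Ltv1 (-1.01), the helicase Ddx21 (-0.97) and Spata5 (-0.97), whose yeast relative releases shuttling factors from new large subunits. Nop53 (1.06), Nhp2 (0.80), a core protein of pseudouridylation particles, and Bop1 (0.69) rose. In shNdufa5_1 47 fell and 3 rose, with a median of -0.20 (19.8% of all genes fell and 22.5% rose), while with shNdufa5_2 46 fell and 1 rose, with a median of -0.18 (11.1% and 11.7% of all genes). Nop53 was the gene that rose there as well (0.39).

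**Figure D5:**
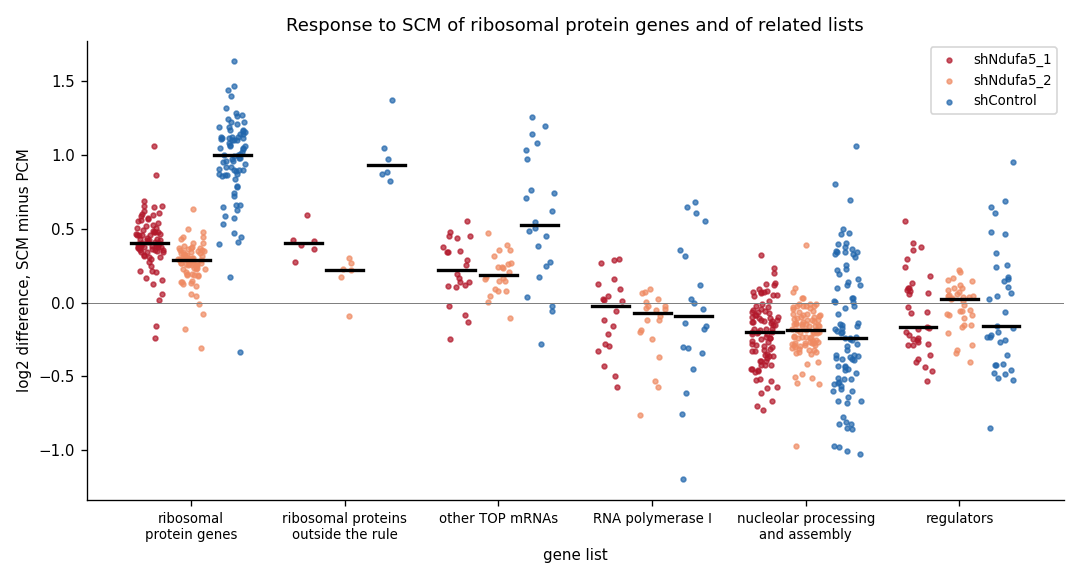
Log2 difference between SCM and PCM (y axis) of the ribosomal protein genes and of 5 related lists (x axis), in shNdufa5_1 (red), shNdufa5_2 (orange) and shControl (blue). Points are genes and black bars are medians. Ribosomal protein genes and other TOP mRNAs have medians above 0 in all 3 genotypes on this scale (scaled to FPKM sums, that of the TOP mRNAs in shControl was -0.08), and nucleolar processing genes have medians below 0.

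Genes of RNA polymerase I, which transcribes ribosomal RNA, moved in both directions at shares near those of all genes. Of 20 tested genes for its subunits and factors 8 fell and 6 rose in shControl in SCM, where 30.2% of all genes fell and 31.7% rose. Their median was -0.09, or -0.62 scaled to FPKM sums (-0.13 relative to all genes). Taf1a of the promoter selectivity factor fell (-1.19), as did Twistnb, a subunit of polymerase I (-0.76). Polr2e, shared by all nuclear polymerases, rose (0.68), and so did Polr1c, shared with polymerase III (0.65). Among 35 tested regulators 12 rose and 17 fell, where 31.7% of all genes rose and 30.2% fell. Their median was -0.16, or -0.63 scaled to FPKM sums (-0.13 relative to all genes). Myc, a transcriptional activator of ribosome genes, had 71.3, 74.7 and 73.9 FPKM in shControl in SCM against 137, 134 and 127 FPKM in PCM, without overlap (-0.85 ± 0.05 (SE), adjusted p = 1.61e-09). Mdm2 (-0.52) and Rps6kb1 (-0.51), which encodes an S6 kinase, fell, while Maf1, a repressor of RNA polymerase III, rose (0.95 ± 0.05 (SE), adjusted p = 3.36e-10), as did Castor1 (0.69), an arginine sensor of the mTORC1 pathway, and Eif4ebp1 (0.65), an inhibitor of cap-dependent translation under mTOR control.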

How the data were processed

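RNA from 18 libraries (6 groups of 3) was available as FPKM values per gene, as deposited by the authors. Per the submitters' processing notes, reads were aligned with STAR 2.6.1, and the builds named there are GRCm38 and mm10. No source used here gives the counter, its strand setting or the FPKM denominator. Nearly all low values (99.5 to 99.8% within 0.1 fragments) were whole multiples of 1 fragment, which gave the depth of 13.8 to 38.9 M fragments per library. Precision for a gene is limited by that depth and by 3 libraries per group.

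Values were tested as log2(FPKM + 1) with limma 3.58.1 (R 4.3.3): mean trend, genes with a mean of at least 1 FPKM, 1 coefficient per group over all 18 libraries, two-sided p adjusted by Benjamini-Hochberg over 11084 genes for each of 9 comparisons, called under 0.05. Fold changes are on the log2(FPKM + 1) scale, which understates the change of low genes. The fit was tested on simulated data. Copies were matched with blastn 2.17.0 (at least 85% identity over 60% of the copy). Gene lengths, GC content and pseudogenes came from GENCODE vM21, promoters from RefSeq.

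Members and lists were chosen with earlier results of these data known. Named genes were the members with the highest and lowest differences, the paralogs and their parents, the role groups, and in each list the called genes with the largest differences. Fau, Mdm2, Rps6kb1, Eif4ebp1, Rps10-ps2, Gm23935 and the members singled out for their spread or copies were chosen after their values were seen. Alternatives were a pseudocount of 0.1, no filter, scaling by FPKM sums, removal of a GC and length trend, a replicate block and leaving out each library. Adding copies' fragments, scaling by fragment totals and the scalings of the related lists were chosen after seeing the data. The labels do not say whether replicate numbers pair libraries across groups. Deviations from group means of same-numbered libraries correlated from -0.093 to 0.065 over 45 pairs. With 3 libraries per group such values cannot exclude a pairing. The deepest libraries were both replicate 2 of shControl, with 38.9 M fragments in SCM and 33.8 M in PCM.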

Additional observations from a re-analysis of the deposited data

Results flagged for a closer look

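The response to SCM differed between genotypes by the test of that difference itself, limma's interaction with adjusted p under 0.05. On the deposited scale it was smaller than in shControl for 70 members with shNdufa5_1, where 15.5% of all genes were lower. In the libraries labelled shNdufa5_2 it was smaller than in shControl for 72, where 24.1% of all genes were lower. Scaled to FPKM sums these counts were 6 (with 5 larger) and 8 (with 5 larger), and the member medians were -0.03 and -0.06. No shares of all genes were taken at that scaling. Scaled to fragment totals the counts were 58 and 69 (with 1 larger each), and the medians -0.38 and -0.52. Rpl41 had -0.94 with shNdufa5_1, Rps12 -0.88, Rpl6 -0.88, Rplp1 -0.85 and Rplp2 -0.83. In the libraries labelled shNdufa5_2 Rpl41 had -1.27, Rps28 -1.08, Rplp1 -0.98, Rpl37a -0.96 and Rplp2 -0.92. Both sets use the same shControl libraries, and the libraries labelled shNdufa5_2 kept most of their Ndufa5 mRNA.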

How the results depend on the processing

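Of 105 named values under 25 alternatives each, 2557 of 2625 kept their direction and side of the threshold, 58 lost their call and 10 turned. Scaling by FPKM sums, which moved the median of all genes by -0.50 for SCM in shControl, changed most. It gave 3 members down for SCM in shControl, and 2 up with shNdufa5_1 in PCM. With shNdufa5_2 it gave 19 up and 2 down in PCM, and 6 up and 2 down in SCM. With shNdufa5_1 in SCM 4 were up, and the interactions had 5 up and 6 down (shNdufa5_1) and 5 up and 8 down (shNdufa5_2). Values that turned were, for SCM in shControl, Rpl4 (-0.20), Rpl5 (-0.14), Rpl22l1 (-0.42) and Rps27l (-0.16). With shNdufa5_1 in PCM they were Rpl6 (-0.0050) and Rpl4 (-0.023), and with shNdufa5_2 in SCM they were Rplp0 (0.013), Rplp2 (0.032) and Rps27l (0.036). Scaling by fragment totals turned Rpl22l1 in shControl to -0.072. It gave 2 members down for SCM in shNdufa5_1 and 2 with shNdufa5_2. Against shControl, shNdufa5_2 had 1 down in PCM and 36 in SCM. Each interaction had 1 up, with 58 (shNdufa5_1) and 69 (shNdufa5_2) down. Removing the GC and length trend gave 2 down for SCM in the libraries labelled shNdufa5_2, 14 up with shNdufa5_1 in PCM, 2 up with shNdufa5_1 in SCM, and 1 up and 33 down with the other hairpin in SCM. The cause was not tested. Without features under 300 bp the members' share of the FPKM sum was 11.2% in SCM and 9.12% in PCM with shNdufa5_1, 14.8% and 12.9% with shNdufa5_2, and 15.9% and 10.4% in shControl.

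With each library left out in turn, members down for SCM in shNdufa5_1 ranged from 1 to 2, members down in the libraries labelled shNdufa5_2 in SCM from 47 to 61, and members up for SCM in shControl from 73 to 76. The SCM call of Rpl22l1 in shControl was lost without any of 10 libraries (adjusted p from 0.0534 to 0.130 by limma). That of Rpl7a in shControl was lost without PCM replicate 1 (0.38), SCM replicate 2 (0.49) or SCM replicate 3 (0.63). In shNdufa5_1, Rpl17 lost its call without PCM replicate 2 (0.79), SCM replicate 1 (0.81) or SCM replicate 2 (0.73), and Rpl23 without PCM replicate 1 (0.13) or SCM replicate 3 (0.13). With shNdufa5_2, Rpl41 lost its SCM call without SCM replicate 2 (0.32), and Rps27l its call against shControl in SCM without shNdufa5_2 replicate 1 or 2 or shControl replicate 2 or 3 (-0.26 to -0.21). With the replicate number as a block (whether the numbers pair libraries is not known) 2 members were down for SCM in shNdufa5_1. No other count moved by over 1.5 times.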
